A study of Mus musculus with 4 samples.

Results

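CD8-negative T cells of the mouse brain are described here: 361 barcodes of 2 brain libraries, out of 23857 brain barcodes and 51471 barcodes of 4 libraries that passed a filter of 500 UMIs, 200 genes and at most 20% mitochondrial UMIs. A barcode stands for a droplet with about 1 cell, and a UMI for 1 captured RNA molecule. A member had at least 3 UMIs over the T cell receptor complex genes Cd3d, Cd3e, Cd3g, Trac, Trbc1, Trbc2 and Trdc, no UMI of Cd8a or Cd8b1, at most 1 UMI over the microglia genes P2ry12 and Tmem119, and none of the B cell gene Cd79a. Members with a UMI of Cd4, Trdc or Il17a were then looked at separately. These genes chose the cells, so their presence or absence across the gate is no finding. The choice of Cd4, Il17a and Cxcr6 as markers was made with values of these data known, so their levels are given as a description.

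All mice were wild type (WT). The NPs brain library came from mice given NPs for 2 months and the untreated brain library from untreated mice. A pair of intestinal libraries, from mice given NPs for 1 week and from untreated mice, was passed through the same gate for comparison. The labels do not spell out NPs. They name BALB/c mice aged 5 weeks and ICR mice aged 6 months without saying which strain gave which library, so strain, age and treatment cannot be told apart where they may differ. They give no number of animals either. Each group was 1 library, so there was no replicate, no spread between animals and no test. Every interval is at the 95% level and covers counting error alone.

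T cells are rare in the healthy brain, where they sit mainly in the meninges, the choroid plexus and around vessels. Those without CD8 are mostly helper T cells, which carry CD4, and gamma delta T cells, whose receptor uses other chains, with Trdc encoding the constant part of the delta chain. Some cells of both kinds make interleukin-17A, the cytokine of type 17 responses, with the transcription factors MAF and AHR among those that take part. Type 17 cells of barrier tissues, the meninges included, often remain in place and carry CXCR6, a chemokine receptor of tissue-resident lymphocytes.

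Il17a and Il17f are neighbours on chromosome 1 (GRCm38, Il17a at chr1:20730905-20734496 on the plus strand and Il17f at chr1:20777146-20790617 on the minus strand). Their promoters are shown because both genes were among the most different between the libraries. The RefSeq start of Il17f lies inside the longer span given by the GENCODE annotation. The 250 bases before the annotated start (RefSeq, GRCm38.p6) lie at chr1:20730655-20730904 for Il17a and at chr1:20784271-20784520 for Il17f. Each is written 5′ to 3′ on the gene's own strand, with matches to AGGTCA or its reverse complement TGACCT in capitals.
Il17a: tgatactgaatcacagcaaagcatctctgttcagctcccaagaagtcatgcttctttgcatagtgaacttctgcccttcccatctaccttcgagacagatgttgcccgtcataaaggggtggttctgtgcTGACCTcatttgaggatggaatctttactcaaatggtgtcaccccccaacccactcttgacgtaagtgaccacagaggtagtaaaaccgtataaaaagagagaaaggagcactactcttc
Il17f: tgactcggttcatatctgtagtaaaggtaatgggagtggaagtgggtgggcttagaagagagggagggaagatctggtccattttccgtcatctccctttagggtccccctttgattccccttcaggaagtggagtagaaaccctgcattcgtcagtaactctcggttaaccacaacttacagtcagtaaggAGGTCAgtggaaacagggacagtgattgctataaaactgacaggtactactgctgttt
AGGTCA is a half-site that many nuclear receptors are known to bind. The Il17a window held TGACCT 120 bases before the start, and the Il17f window held AGGTCA 58 bases before it. In 300-base windows that run on for 50 bases past the start, 5340 of 32851 RefSeq promoters (16.3%) held 1 or the other form on either strand, as did 5 of the 24 promoters (20.8%) of the type 17 genes and Il17a, a share near that of all promoters. A match describes the letters only.

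CD8-negative T cells made up a larger share of the NPs library than of the untreated library. They were 252 of 12189 kept barcodes, or 2.07% (exact binomial interval 1.82 to 2.34%), in the NPs library and 109 of 11668, or 0.934% (0.768 to 1.13%), in the untreated library. Brain CD8 T cells, chosen by the same gate but with at least 1 UMI of Cd8a or Cd8b1, were 123 barcodes (1.01%) in the NPs library and 61 (0.523%) in the untreated library. CD8-negative cells were 67.2% (62.2 to 71.9%) of the T cells of the NPs library and 64.1% (56.4 to 71.3%) of those of the untreated library, so the mix of the 2 kinds was alike within counting error. A share of barcodes depends on every other cell in the library, and more T cells and fewer other cells cannot be told apart.

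The members were of ordinary depth for lymphocytes. Their median was 3757 UMIs (516 to 19295) in the NPs library and 4185 UMIs (1819 to 24990) in the untreated library, with 1615.5 and 1659 genes in the NPs and untreated library. Summed over members, 1126910 UMIs stood behind the NPs values and 534224 behind the untreated values, out of 63889853 and 70594935 UMIs in all barcodes of the NPs and untreated brain library. The sum of the T cell receptor genes had a median of 22 UMIs (3 to 135) in the NPs library and of 19 UMIs (3 to 81) in the untreated library. Just inside the gate, 6 NPs and 5 untreated members had exactly 3 such UMIs. Just outside it, 29 NPs and 20 untreated barcodes had 2. A further 11 NPs and 2 untreated T cells had a single CD8 UMI, and 12 NPs and 7 untreated barcodes were left out with 2 microglia UMIs.

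T cell genes of the gate are given as a description, since they chose the cells. Cd3e, a CD3 chain, was found in 214 of 252 NPs and 84 of 109 untreated members, Cd3g in 226 and 92, and Trbc2, a constant region of the beta chain, in 223 and 98 NPs and untreated members. The B cell gene Ms4a1 was at 0 UMIs in both libraries, as were the border macrophage genes Cd163 and Lyve1. Traces of other cells were nevertheless present. Astrocyte genes, 5 in all, summed to 2202 CPM in NPs and 2334 CPM in untreated members, against 6318 and 6525 CPM in the other barcodes of the NPs and untreated library. CPM stands for UMIs per 1000000 UMIs summed over the cells described. In all, 23 NPs members (9.13%) and 19 untreated members (17.4%) held 10 or more UMIs of any of 10 marker sets. These are called mixed barcodes below. The sets were those of astrocytes, neutrophils, endothelial cells, neuroblasts, oligodendrocytes, border macrophages, B cells, ependymal cells and microglia, and the MHC class II genes. Astrocyte genes accounted for 15 of the NPs and 14 of the untreated mixed barcodes, and neutrophil genes for 5 and 2. The choroid plexus genes, led by Ttr, summed to 156 CPM in NPs and 2001 CPM in untreated members, against 2369 and 23504 CPM in the other barcodes. Choroid plexus and natural killer markers were among those left out of the mixed sets. At least 10 choroid plexus UMIs were held by 0 NPs and 52 untreated members. At least 10 UMIs of natural killer markers were held by 14 members of each library. Values without mixed barcodes still include such members unless another set removed them. The 2 brain libraries shared 35 barcodes, of which 1 was a member in either library and 0 in both.

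Il17a was far more frequent in the NPs members. At least 1 Il17a UMI was found in 86 of 252 NPs members, or 34.1% (28.3 to 40.3%), against 3 of 109 untreated members, or 2.75% (0.571 to 7.83%). The NPs members held 2176 Il17a UMIs and the untreated members 71, which is 1931 CPM (exact Poisson interval 1851 to 2014) in NPs and 133 CPM (104 to 168) in untreated members. The ratio was 14.5 (11.5 to 18.7), or 3.86 on the log2 scale. Among cells with Il17a, the lowest, median and highest count were 1, 16.5 and 125 UMIs in the NPs library, while the 3 untreated cells held 5, 6 and 60. A count of 10 or more was reached by 55 NPs cells and by 1 untreated cell. The transcript was thus abundant in single NPs cells rather than thinly spread over many.

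**Figure D1:**
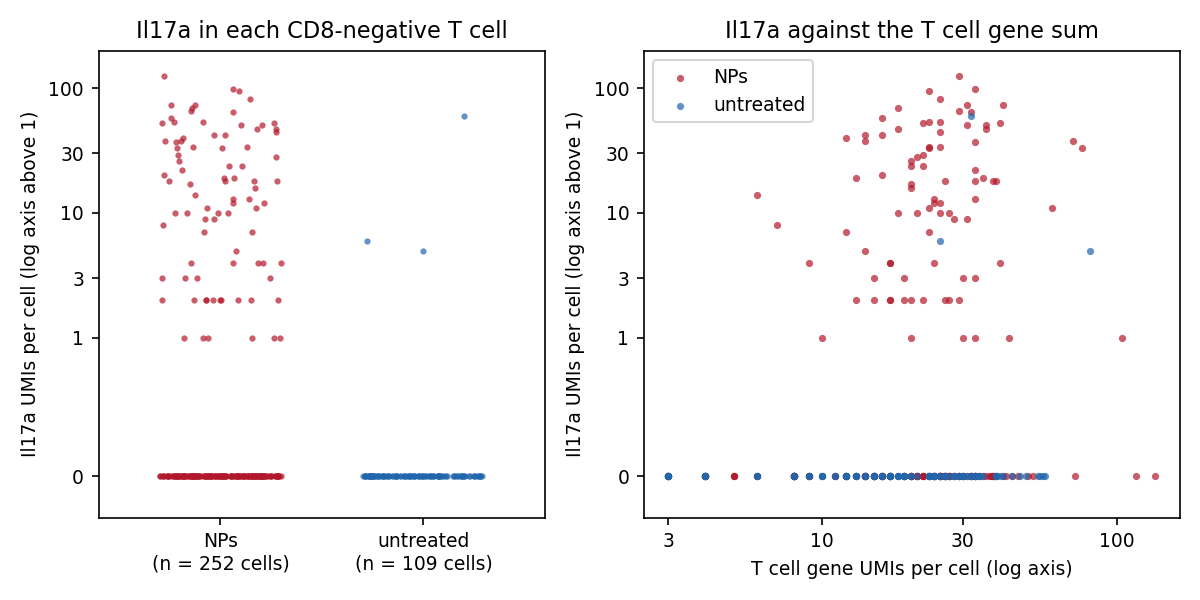
Il17a UMIs in each CD8-negative T cell of the NPs and the untreated brain library (left), and against the summed UMIs of the T cell receptor genes in the same cell (right). Each point is 1 cell, points are spread sideways on the left for visibility, and the axes are logarithmic above 1; the 86 positive NPs cells reach 125 UMIs, and 3 untreated cells lie above 0.

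The share was also read at equal depth and against cells that should lack the gene. With each cell thinned to 1000 UMIs, 74 of 249 NPs members (29.7%) and 2 of 109 untreated members (1.83%) kept an Il17a UMI. With at least 3 Il17a UMIs asked for, 70 NPs members (27.8%) and 3 untreated members (2.75%) counted. In microglia-gated barcodes, which should lack the gene, 39 of 6692 (0.583%) had an Il17a UMI in the NPs library and 2 of 5667 (0.0353%) in the untreated library, at median depths of 4821 and 5180 UMIs. Without mixed barcodes, Il17a was found in 78 of 229 NPs members (34.1%) and 2 of 90 untreated members (2.22%).

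Il17a was found in cells with and without a Cd4 UMI alike. Cd4, the co-receptor of helper T cells, had a UMI in 112 NPs members (44.4%) and 45 untreated members (41.3%), at 159 CPM in NPs and 131 CPM in untreated members. Of these, 44 of 112 NPs cells (39.3%) and 1 of 45 untreated cells (2.22%) had Il17a. Trdc had a UMI in 16 NPs members (6.35%) and 8 untreated members (7.34%), and 4 of the NPs and 0 of the untreated cells had Il17a. Neither gene was seen in 124 NPs members (49.2%) and 56 untreated members (51.4%), of which 38 (30.6%) in the NPs library and 2 (3.57%) in the untreated library had Il17a. No member had both. Cd4 is a low transcript: after thinning to 1000 UMIs its share was 18.1% in NPs and 13.8% in untreated members, so a cell without a Cd4 UMI is not shown to lack the gene.

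Receptor genes were also counted in the Il17a-positive NPs cells. Of the 86 cells, 85 had a Trac, Trbc1 or Trbc2 UMI, and 74 had Trac, the constant part of the alpha chain. A gamma chain constant gene (Tcrg-C1, Tcrg-C2, Tcrg-C3 or Tcrg-C4) was seen in 22 of them and the variable gene Trgv2 in 10. All 3 untreated Il17a-positive cells had Trac. Trac, Trbc1 and Trbc2 helped to choose the cells, so their presence is no finding. Transcripts of gamma constant genes also occur in alpha beta T cells, so these counts do not sort the cells into kinds.

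**Figure D2:**
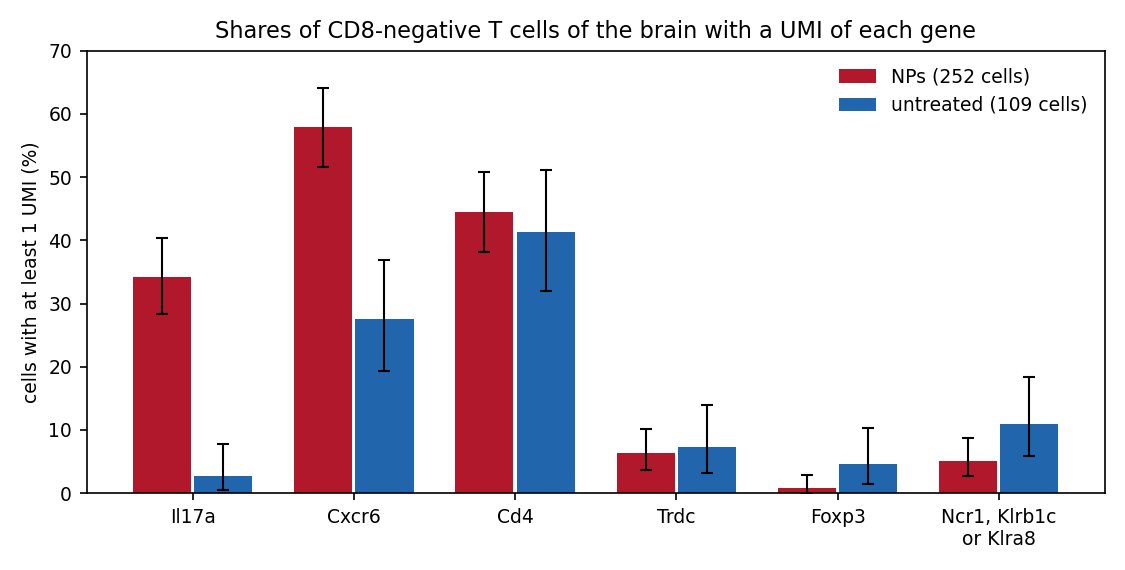
Share of CD8-negative brain T cells with at least 1 UMI of each gene, NPs library (red, 252 cells) left of the untreated library (blue, 109 cells); lines are exact 95% binomial intervals for counting error only. The Il17a and Cxcr6 bars stand apart between the libraries, while the Cd4 bars are at 44.4% in the NPs and 41.3% in the untreated library.

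Cxcr6, the chemokine receptor gene of resident lymphocytes, had a UMI in 146 NPs members (57.9%, 51.6 to 64.1%) and 30 untreated members (27.5%, 19.4 to 36.9%). After thinning the shares were 42.6% in NPs and 11.9% in untreated members. In CD8 T cells of the same libraries the shares were 69.9% (NPs) and 63.9% (untreated) before thinning. After thinning they were 38.5% (NPs) and 32.8% (untreated) in CD8 T cells. Foxp3, the defining factor of regulatory T cells, was found in 2 NPs members (0.794%) and 5 untreated members (4.59%), with 6 UMIs in the NPs and 10 in the untreated library. The intervals of the shares, 0.0963 to 2.84% in NPs and 1.51 to 10.4% in untreated members, overlapped. Genes of natural killer cells (Ncr1, Klrb1c or Klra8) had a UMI in 13 NPs members (5.16%) and 12 untreated members (11.0%).

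Across all genes, 5833 had at least 40 UMIs over the members of both libraries and were compared. Of these, 240 (4.11%) were 2-fold or more higher in the NPs members and 126 (2.16%) were lower by the same measure, called higher or lower from here on, and the median log2 ratio was 0.03. Without mixed barcodes the calls were 245 higher (5.33%) and 61 lower (1.33%) of 4598 genes. Among Il17a-negative members alone they were 129 higher (2.69%) and 92 lower (1.92%) of 4798. Calls rest on 1 library per group and on counting error alone, and say nothing of other animals. The NPs members held more UMIs, so a gene seen in 1 library alone passed at a lower CPM in NPs than in untreated members. Among low genes the filter therefore favoured higher calls. List counts below are to be read beside the shares over all genes, 4.11% higher and 2.16% lower. A single call in a short list is near these shares and is no result about the list.

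Some of the most extreme ratios belonged to single barcodes. Camp, a neutrophil granule gene, held 1363 UMIs in the NPs members, 1291 of them in 1 cell, and 0 in untreated members. Ngp held 659 UMIs in NPs members (524 in 1 cell) against 3 in untreated members, and Lcn2, Ltf and Chil3 followed the same pattern. The MHC class II genes Cd74, H2-Aa, H2-Ab1 and H2-Eb1 stood lowest, but 268 of 272, 133 of 133, 136 of 139 and 63 of 63 untreated UMIs lay in 1 cell. Il1b, the interleukin-1 beta gene, was in 9 NPs and 4 untreated cells. Without mixed barcodes, Camp, Ngp, Chil3, Ltf, Lcn2 and Il1b kept at most 3 UMIs in either library, and Cd74 had a log2 ratio of 0.31.

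Among genes at a level at least 2 times that of the other brain barcodes, the 10 largest ratios without mixed barcodes were those of Fam110a, Il17f, Ms4a4b, Il17a, Tnfsf11, Serpinb1a, Rarg, Ltb4r1, Aqp3 and Ccl20. The values that follow are over all members. Il17f, the neighbour and close relative of Il17a, had 111 UMIs in 30 NPs cells and 1 UMI in 1 untreated cell, 98.5 against 1.87 CPM in NPs and untreated members (ratio 52.6, 9.25 to 2097). Ccl20, the chemokine ligand of CCR6, had 45 UMIs in 9 NPs cells and 0 in untreated members, and was at least 7.11-fold higher. Tnfsf11, which encodes RANKL, had 55.9 CPM in NPs and 3.74 CPM in untreated members (14.9, 3.97 to 126). Aqp3, an aquaporin gene, had 47.0 CPM in NPs and 9.36 CPM in untreated members (5.03), and Ltb4r1, the leukotriene B4 receptor gene, 97.6 CPM in NPs and 18.7 CPM in untreated members (5.21).

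Ms4a4b, a membrane protein gene of T cells, differed in other cells too. It had 945 CPM in NPs and 61.8 CPM in untreated members (15.3), but CD8 T cells showed 1928 CPM in the NPs and 53.7 CPM in the untreated library, and the other brain barcodes 11.2 CPM in the NPs and 3.26 CPM in the untreated library. In the intestine it had 622 CPM in NPs and 552 CPM in untreated CD8-negative cells. Colec12, a collectin gene named after its values were seen, lay under that level limit: it had 396 CPM in NPs and 16.8 CPM in untreated members (23.5, 12.3 to 51.7), and 721 CPM in the NPs and 17.5 CPM in the untreated library in the other brain barcodes. For these genes the brain libraries differed in every class compared, and treatment and strain cannot be told apart here.

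Among the 10 smallest ratios chosen in the same way were those of Nsg2, Actn1, Ms4a6c, Ccr7, Klra1, Dapl1, Serpinb6b, Tmem71 and Tcf7. Actn1, an actin crosslinker gene, had 32.8 CPM in NPs and 125 CPM in untreated members (3.82-fold lower) and lay in 28 NPs and 38 untreated cells. Klra1, a Ly49 receptor gene, had 17.7 CPM in NPs and 69.3 CPM in untreated members (3.90-fold lower). Ms4a6c had 47.0 CPM in NPs and 217 CPM in untreated members (4.62-fold lower), and CD8 T cells had 27.6 CPM in the NPs and 299 CPM in the untreated library, the same order.

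**Figure D3:**
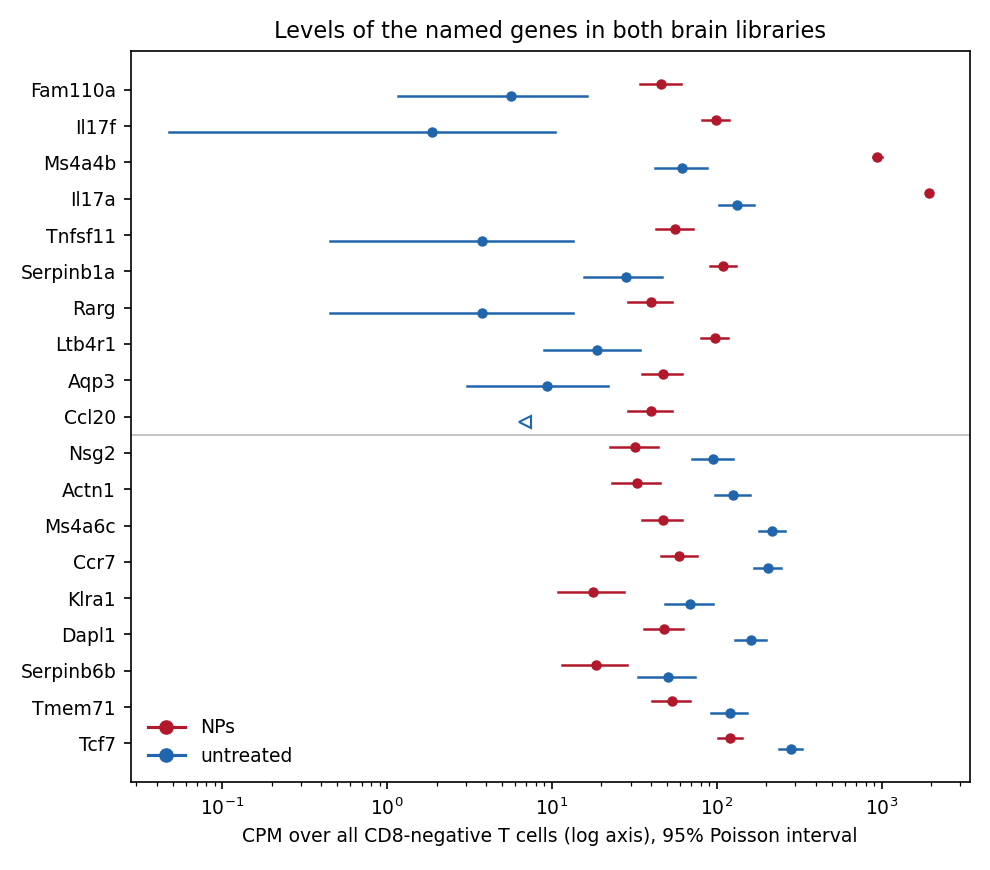
Levels of the 10 highest (above the line) and 9 of the 10 lowest (below it) genes chosen without mixed barcodes, given over all CD8-negative T cells of the NPs (red) and untreated (blue) library in CPM on a log axis with 95% Poisson intervals. Ccl20 had 0 untreated UMIs, and the open triangle marks the upper end of its 95% Poisson interval. Intervals of the 2 libraries stand apart for most genes shown.

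Genes of the type 17 programme were higher in the NPs members. Of 20 genes on the list, 15 passed the level filter, 13 were called higher and 0 lower, and their median log2 ratio was 1.74. Over all genes 4.11% were higher and 2.16% lower, and the median was 0.03. Those of the 13 with few untreated UMIs, Il17f (1) and Ccl20 (0) among them, passed the filter through the NPs library. Their calls are no support, though the count and the median include them. Maf had 690 CPM in NPs and 206 CPM in untreated members (3.35, 2.74 to 4.13), and Ahr, the aryl hydrocarbon receptor gene, 179 CPM in NPs and 43.1 CPM in untreated members (4.16, 2.70 to 6.72). Maf was also present in the other brain barcodes, with 624 CPM in the NPs and 406 CPM in the untreated library, while Ahr had 2.87 CPM in the NPs and 2.61 CPM in the untreated library there. The ion channel relatives Tmem176a and Tmem176b, high in type 17 cells, had 494 and 530 CPM in NPs members and 153 and 172 CPM in untreated members. Ramp1, part of the receptor for the neuropeptide CGRP, had 394 CPM in NPs and 167 CPM in untreated members (2.36). Il23r, the receptor of interleukin-23, was too low to compare, with 9 UMIs in NPs and 2 in untreated members. Rora and Batf passed the filter without a call, at log2 ratios of 0.67 and 0.15. Among Il17a-negative members alone 10 of the 20 genes passed, with 3 higher and a median of 0.71.

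Genes of T cell cytokines other than Il17a gave 7 higher and 0 lower of 10 passed (20 on the list). Il17f, Tnfsf11 and Areg had few or no untreated UMIs and passed the filter through the NPs library, so their calls are no support. Among Il17a-negative members 4 of 7 passed cytokine genes were higher and 0 lower (median 1.11). Tnf had 69.2 CPM in NPs and 28.1 CPM in untreated members (2.47, 1.41 to 4.61). Ifng, the type 1 cytokine, had 79.0 CPM in NPs and 33.7 CPM in untreated members (2.34, 1.40 to 4.13). Tnfsf8, which encodes the CD30 ligand, had 277 CPM in NPs and 97.3 CPM in untreated members (2.84). Areg, a growth factor of tissue repair, had 45 UMIs in 15 NPs cells and 0 in untreated members, at least 7.11-fold higher. Ltb, one of the most abundant cytokine genes here, had 1033 CPM in NPs and 681 CPM in untreated members, which at 1.52-fold was no call. Il5, a type 2 cytokine, had no UMI in the members of either library.

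Part of the residency and activation genes were called higher. Of 14 residency genes 11 passed, with 4 higher and 0 lower (median 0.64), against 4.11% higher and 2.16% lower over all genes. Cxcr6 had 690 CPM in NPs and 213 CPM in untreated members (3.23, 2.65 to 3.97). Rgs1, a brake on chemokine receptor signals, had 977 CPM in NPs and 305 CPM in untreated members (3.20), and Bhlhe40 and Prdm1, transcription factors of resident and effector cells, were 3.28-fold and 3.40-fold higher in NPs members. Cd69, a retention marker, had 456 CPM in NPs and 271 CPM in untreated members and was no call. Without mixed barcodes 2 residency genes, Xcl1 (log2 -1.20) and P2rx7 (-1.07), were called lower, and among Il17a-negative members 1 of 9 passed was higher and 0 lower. Of 15 activation genes 9 passed, with 4 higher and 0 lower (median 0.51). The costimulator Icos had 471 CPM in NPs and 180 CPM in untreated members (2.62). The factor Irf4 had 44 UMIs in NPs and 0 in untreated members (at least 6.95-fold higher). Irf4 passed the filter through the NPs library, so its call is no support. Pdcd1, which encodes PD-1, was 2.69-fold higher (1.11 to 7.83) and Nfkbid 4.36-fold higher in NPs members. Without mixed barcodes 2 of 6 passed activation genes were higher (median 0.23), as was 1 of 7 among Il17a-negative members (median 0.24).

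Genes named for regulatory T cells gave 4 higher and 0 lower of 9 passed (16 on the list, median 0.68). Over all genes 4.11% were higher and 2.16% lower. The 4 were Il2ra, the interleukin-2 receptor alpha chain (91.4 CPM in NPs and 15.0 CPM in untreated members, ratio 6.10), Ctla4, an inhibitory receptor (265 CPM in NPs and 91.7 CPM in untreated members, 2.89), Areg and the actin-binding gene Capg (2.33-fold higher). Areg passed the filter through the NPs library, so its call is no support here either. All 4 are also known from activated or effector T cells, and Foxp3 itself, at 6 NPs and 10 untreated UMIs, did not pass the filter. Ikzf2, the Helios gene, had 193 CPM in NPs and 202 CPM in untreated members.

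Genes of naive and recirculating T cells were lower in the NPs members, with 0 higher and 5 lower of 11 passed (12 on the list, median -0.61). Over all genes 4.11% were higher and 2.16% lower. Ccr7, the chemokine receptor that guides T cells to lymph nodes, had 59.5 CPM in NPs and 204 CPM in untreated members (3.43-fold lower, 2.51 to 4.72). The transcription factors Lef1 and Tcf7 had 127 and 121 CPM in NPs members and 328 and 281 CPM in untreated members (2.58-fold and 2.33-fold lower), and Dapl1 was 3.36-fold lower. Klf2, which drives tissue exit genes, had 1125 CPM in NPs and 1625 CPM in untreated members and was no call. Among Il17a-negative members alone 2 of 11 were lower, Ccr7 (78.9 CPM in NPs and 196 CPM in untreated cells) and Dapl1 (68.7 CPM in NPs and 168 CPM in untreated cells), while Lef1 and Tcf7 were no call, at log2 ratios of -0.96 and -0.84.

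**Figure D4:**
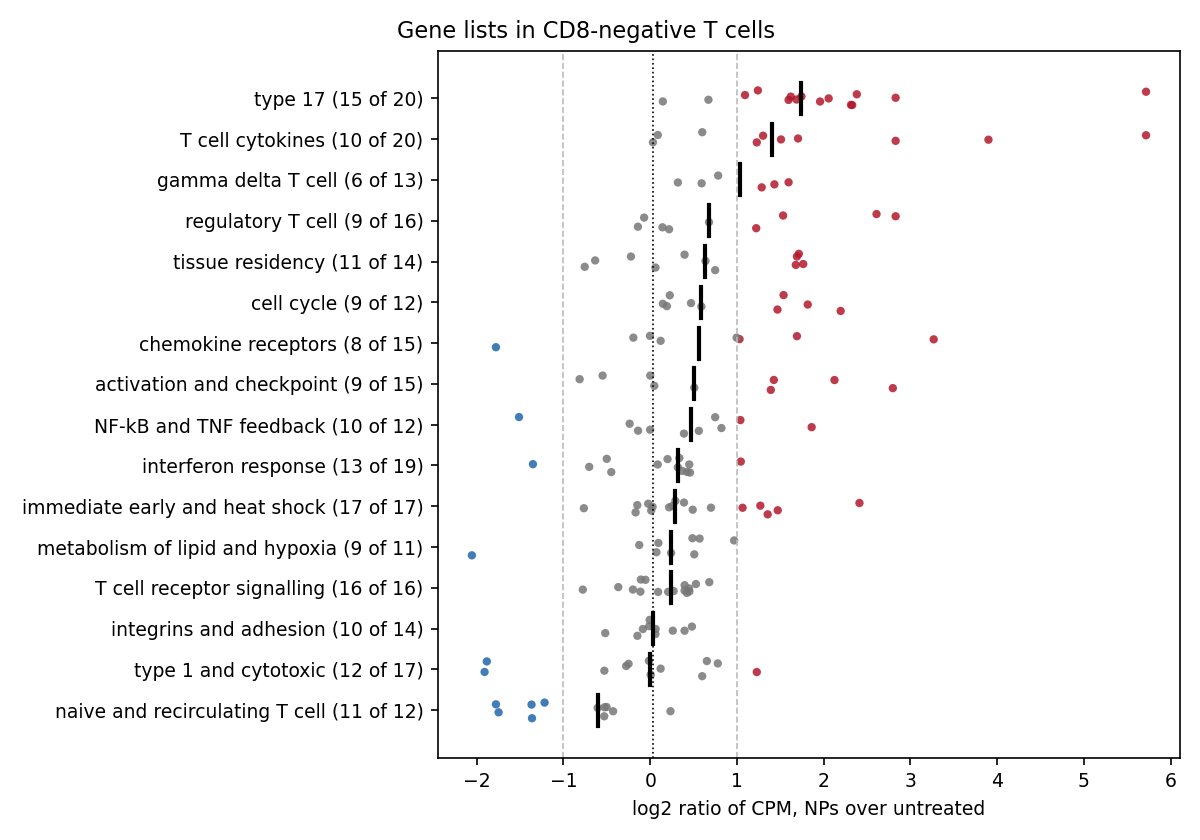
Log2 ratio of CPM, NPs over untreated members, for each list gene with at least 40 UMIs over both libraries (how many of the list in brackets); red points are at least 2-fold higher in NPs, blue points at least 2-fold lower, bars mark list medians and the dotted line the median of all 5833 genes (0.03). The type 17 list has its median at 1.74 and the naive and recirculating list at -0.61.

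Type 1 and cytotoxic genes showed no common direction, with 1 higher and 2 lower of 12 passed (17 on the list, median -0.00). With 4.11% higher and 2.16% lower over all genes, so few calls are no result about the list. The called members were Ifng, above, and the chemokine genes Ccl4 (77.2 CPM in NPs and 290 CPM in untreated members, 3.76-fold lower) and Ccl3 (14.2 CPM in NPs and 52.4 CPM in untreated members, 3.69-fold lower). With at most 2 UMIs over 7 microglia and myeloid genes both calls were lost, at log2 ratios of -0.09 for Ccl4 and -0.79 for Ccl3, and Ccl4 was at -0.37 without cells that held natural killer genes. Without mixed barcodes Ccl3 no longer passed the filter. In the other brain barcodes Ccl3 had 152 CPM in the NPs and 95 CPM in the untreated library, and Ccl4 had 428 CPM in the NPs and 321 CPM in the untreated library. Gzma, a granzyme, had 684 UMIs in 14 NPs cells and 214 in 10 untreated cells. Tbx21, the type 1 factor T-bet, had 32.0 CPM in NPs and 31.8 CPM in untreated members. Of the type 2 genes only the transcription factor gene Gata3 passed, at 85.2 CPM in NPs and 88.0 CPM in untreated members.

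Other lists gave smaller counts, beside 4.11% higher and 2.16% lower over all genes. Chemokine receptors had 3 higher and 1 lower of 8 passed (15 on the list): Ccr1 had 54.1 CPM in NPs and 5.62 CPM in untreated members (9.64, 3.15 to 48.0), Ccr2 was 2.04-fold higher, Cxcr6 and Ccr7 are given above. Ccr1 had few untreated UMIs and passed the filter through the NPs library, so its call is no support. Without mixed barcodes Ccr1 had 35 UMIs in NPs and 1 UMI in untreated members and no longer passed the filter. Among Il17a-negative members 0 of 7 passed chemokine receptor genes were higher and 1 was lower. Immediate early and heat shock genes had 5 higher and 0 lower of 17 passed (median 0.29). Fos had 776 CPM in NPs and 303 CPM in untreated members, Fosb 299 CPM in NPs and 56.2 CPM in untreated members, and Nfkbia, Dusp1 and Junb were 2.77-fold, 2.41-fold and 2.09-fold higher. Immediate early genes are known to rise during enzymatic dissociation, and in the other barcodes of the same libraries Fos had 851 CPM in NPs and 678 CPM in untreated barcodes. Its part in these values was not tested.

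Gamma delta T cell genes had 3 higher and 0 lower of 6 passed (13 on the list): Tcrg-C2 (65.7 CPM in NPs and 24.3 CPM in untreated members, 2.70-fold), the innate-like lymphocyte factor Zbtb16 (2.44-fold) and 5830411N06Rik (3.02-fold), with all 16 untreated UMIs of the last in 1 cell. Without mixed barcodes Zbtb16 and 5830411N06Rik were no longer called, at log2 ratios of 0.94 and 0.91. Trdc itself had 73.7 CPM in NPs and 95.5 CPM in untreated members. Cell cycle genes had 4 higher and 0 lower of 9 passed (12 on the list), but they lay in few cells: Mki67 had 98 UMIs in 9 NPs cells and 16 in 4 untreated cells, and 41 of the 87 NPs UMIs of Rrm2 were in 1 cell. Interferon response genes had 1 higher (Gbp4, 2.06-fold) and 1 lower (Rtp4, 2.55-fold) of 13 passed, but the log2 ratio of Rtp4 was 0.00 without mixed barcodes. Over all genes 4.11% were higher and 2.16% lower, so single calls in the lists of this paragraph are no result about a list. NF-kB feedback genes had 2 higher (Bcl2a1d and Tnfaip3) and 1 lower (Cd83) of 10 passed, and without mixed barcodes Tnfaip3 had a log2 ratio of 0.96, no call, and Cd83, with 14 UMIs in NPs and 12 in untreated members, no longer passed the filter. None of 16 T cell receptor signalling genes and of 10 passed integrin genes was called in either direction, with medians of 0.24 and 0.03. Lipid and hypoxia genes had 0 higher and 1 lower of 9 passed, Slc2a1, with 48 of its 71 untreated UMIs in 1 cell, and without mixed barcodes they had 2 higher and 0 lower of 7 (median 0.42). The X-linked transcript Xist had 1480 CPM in NPs and 1376 CPM in untreated members.

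Within the NPs library, Il17a-positive members were set against Il17a-negative members. The 86 positive cells held 341326 UMIs and the 166 negative cells 785584, with medians of 3184 UMIs in positive and 4024 UMIs in negative cells. Of 6967 genes with at least 20 UMIs over both subsets, 558 (8.01%) were called higher and 431 (6.19%) lower in the positive cells (median 0.12). The type 17 list had 14 higher and 0 lower of 17 passed (median 2.10). Il17f and Ccl20 reached the 20 UMIs through the positive cells, so their calls are no support, though the count and the median include them. Il17f had 110 UMIs in positive and 1 UMI in negative cells, so that 29 of the 30 NPs cells with Il17f also had Il17a. All 45 Ccl20 UMIs lay in 9 positive cells (at least 34.5-fold higher). Maf was nearly general, with 95.3% of positive and 47.0% of negative cells and 1623 CPM in positive and 284 CPM in negative cells (5.72).

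Residency genes gave 7 higher and 2 lower of 12 passed in the positive cells, activation genes 5 higher and 2 lower of 11, and chemokine receptors 5 higher and 2 lower of 9. Cxcr6 was found in 94.2% of positive and 39.2% of negative cells (1474 CPM in positive and 349 CPM in negative cells, 4.23). Icos was found in 89.5% of positive and 46.4% of negative cells (1052 CPM in positive and 219 CPM in negative cells, 4.80), Ctla4 had 668 CPM in positive and 90.4 CPM in negative cells (7.39), and Ccr2, the monocyte and effector T cell chemokine receptor, 627 CPM in positive and 155 CPM in negative cells (4.04). 5830411N06Rik had 255 CPM in positive and 19.1 CPM in negative cells (13.3). Areg and Irf4 were 8.06-fold and 10.4-fold higher in positive cells. Ifng was not higher, with 61.5 CPM in positive and 86.6 CPM in negative cells.

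The negative cells held nearly all cytotoxic transcripts. Ccl5 had 17.6 CPM in positive and 2785 CPM in negative cells (158-fold lower), Nkg7, a cytotoxic granule gene, 17.6 CPM in positive and 484 CPM in negative cells (27.5-fold lower), and Gzma 1 UMI in positive and 683 UMIs in negative cells. The 5 smallest ratios in both libraries were those of S100a9, S100a8, Ccl5, Tyrobp and Fcer1g, of which S100a9 and S100a8 are neutrophil genes. Over 5 neutrophil markers, these 2 included, 13135 of 13194 NPs UMIs lay in 5 mixed barcodes. In the untreated library 1835 of 1850 lay in 2, and none of these barcodes had Il17a. The cytotoxic list had 0 higher and 11 lower of 13 passed (median -2.83), the naive list 0 higher and 8 lower of 11 (median -2.30) and the cell cycle list 0 higher and 7 lower of 11 (median -1.86). Lef1 had 17.6 CPM in positive and 174 CPM in negative cells (9.92-fold lower). Integrin Itga4, a subunit of VLA-4, had 120 CPM in positive and 432 CPM in negative cells (3.59-fold lower).

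**Figure D5:**
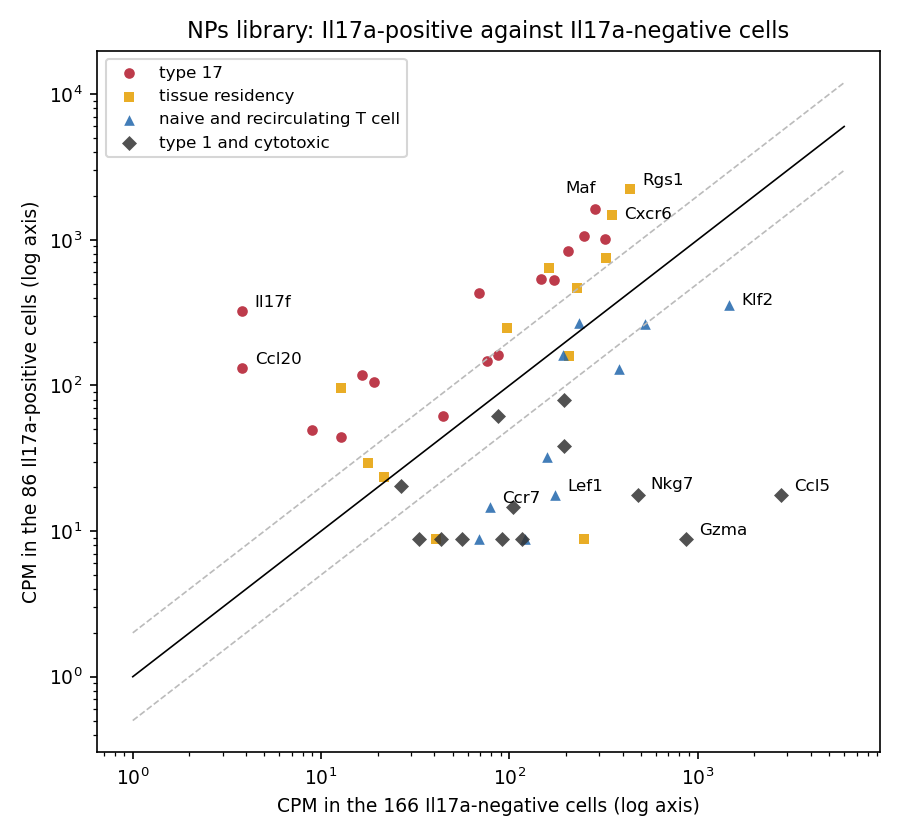
CPM of genes of 4 lists in the 86 Il17a-positive (vertical) and 166 Il17a-negative (horizontal) CD8-negative T cells of the NPs library, on log axes; the solid line marks equal levels, dashed lines a 2-fold difference, and counts under 3 are drawn at 3. Type 17 genes such as Maf (1623 CPM in positive and 284 CPM in negative cells) lie above the lines, and cytotoxic genes such as Ccl5 below them.

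Only 3 untreated cells had Il17a, so the same contrast there rests on 22858 UMIs. With at least 20 UMIs in each library, 117 of 4186 genes (2.8%) were 2-fold higher and 28 (0.669%) lower in the positive cells of both libraries. The 10 largest that qualified, by the smaller of the ratios, were Ctla4, Furin, Rgcc, Fosb, Icos, Tnfsf8, Maf, Ccr2, Bhlhe40 and Ldlrad4. In untreated cells Ctla4 had 30 UMIs in the 3 positive and 19 in the 106 negative cells, and Maf 17 in positive and 93 in negative cells. Furin, a protease gene, had 396 CPM in positive and 68.7 CPM in negative NPs cells (5.75), and 8 UMIs in positive and 19 in negative untreated cells. Ccr7 went the other way in the untreated library, with 9 UMIs in the positive and 100 UMIs in the negative cells.

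Trdc-positive members were set against Cd4-positive members. There were 16 Trdc-positive and 112 Cd4-positive cells in the NPs library and 8 Trdc-positive and 45 Cd4-positive cells in the untreated library. Of 4874 genes in the NPs library, 423 (8.68%) were called higher and 658 (13.5%) lower in the Trdc-positive cells, and 36 (1.55%) were higher and 65 (2.8%) lower of 2320 compared in both libraries. Gzma had 3793 CPM in Trdc-positive and 20.3 CPM in Cd4-positive NPs cells, and 3054 CPM in Trdc-positive and 38.2 CPM in Cd4-positive untreated cells. Ncr1, the natural killer receptor NKp46, had 51 and 26 UMIs in the Trdc-positive cells of the NPs and untreated library and 0 in the Cd4-positive cells of either. Klrk1, the activating receptor NKG2D, was 19.0-fold higher in NPs and 49.9-fold higher in untreated Trdc-positive cells. Trac was 22.2-fold lower in NPs and 5.81-fold lower in untreated Trdc-positive cells, and Slamf6, a receptor of conventional T cells, 21.5-fold and 18.9-fold lower. Trac and Trdc both count in the gate, and a cell with Trdc needs fewer Trac UMIs to enter. The rule may thus have set part of the Trac difference.

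Natural killer cells can transcribe Trdc without a rearranged receptor, and 7 of 16 NPs and 4 of 8 untreated Trdc-positive members also had Ncr1, Klrb1c or Klra8. The Trdc-positive members are therefore named by that gene alone. A further 9 NPs and 4 untreated Trdc-positive members had a CD3 UMI and none of the 3 killer genes. Cd163l1, a scavenger receptor gene known from gamma delta T cells that make interleukin-17, had 40 UMIs in Trdc-positive NPs and 19 in Trdc-positive untreated cells and 0 in the Cd4-positive cells of either library. Over all members its UMIs lay in 5 NPs and 2 untreated cells.

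Against the CD8 T cells of the same brain libraries, CD8-negative T cells carried more Il17a and less of the cytotoxic programme. In the NPs library 925 of 8343 genes (11.1%) were called higher and 190 (2.28%) lower, and over both libraries 312 of 5527 (5.65%) were higher and 46 (0.832%) lower in each. Mixed barcodes stayed in this contrast. They were 23 of 252 CD8-negative and 5 of 123 CD8 T cells in the NPs library. In the untreated library they were 19 of 109 CD8-negative and 1 of 61 CD8 T cells. Their part in the higher calls was not tested. The 10 genes with the largest ratios, by the smaller of the 2 libraries, were Trdc, Il1b, Cd4, Ncr1, Pou3f3, Il17a, Wfdc17, B3galt2, Rab34 and Izumo1r. Among them Trdc and Il17a marked subsets and Il1b lay nearly all in mixed barcodes. Il17a had 1931 CPM in CD8-negative and 159 CPM in CD8 T cells of the NPs library (12.1) and 133 CPM in CD8-negative cells and 0 UMIs in CD8 T cells of the untreated library (at least 11.6-fold higher). Ncr1 had 103 UMIs in NPs and 74 in untreated CD8-negative cells and 0 in CD8 T cells. Izumo1r, the folate receptor 4 gene of helper T cells, was 7.52-fold higher in NPs and 8.30-fold higher in untreated CD8-negative cells. Il17a was found in 5 of 123 CD8 T cells (4.07%) of the NPs library and in 0 of 61 of the untreated library, where a count of 0 allows a share of cells with an Il17a UMI of up to 4.92% (3 of 61).

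The 10 lowest against CD8 T cells were Klrc1, Gzmk, Klrc2, Ccl5, Ly6c2, Eomes, Gzmb, Slamf7, Fasl and Nkg7, nearly all genes of cytotoxic cells. Ccl5 had 1947 CPM in CD8-negative and 9915 CPM in CD8 T cells of the NPs library, and 1134 CPM in CD8-negative and 12578 CPM in CD8 T cells of the untreated library. Gzmk, a granzyme of memory cells, was 9.84-fold lower in NPs and 17.8-fold lower in untreated CD8-negative cells. Cxcr6, in contrast, had 690 CPM in CD8-negative and 515 CPM in CD8 T cells of the NPs library and 213 CPM in CD8-negative and 430 CPM in CD8 T cells of the untreated library. Maf had 149 CPM in NPs and 7.67 CPM in untreated CD8 T cells, so it was higher in the NPs library in both kinds of T cell.

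Against all other brain barcodes, the genes with the largest ratio in both libraries were Cd163l1, Il17a, Tcrg-C1, Klra5, Cd40lg, Cxcr6, Krt83, Izumo1r, Gstp3 and Il18r1, with smaller log2 ratios of 9.69 for Cd163l1, 7.40 for Cxcr6 and 7.28 for Il18r1. This is a description of the gated cells, since the gate chose T cells. Cd40lg, the helper molecule CD40 ligand, had 66.6 CPM in NPs and 46.8 CPM in untreated members.

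The same gate in the intestine found 219 of 10647 barcodes (2.06%) in the NPs library and 2038 of 16967 (12%) in the untreated library, the opposite order to the brain. Il17a was found in 5 of the 219 NPs (2.28%) and 13 of the 2038 untreated intestinal members (0.638%), at 103 CPM in NPs and 28.5 CPM in untreated members. Il17f had 3.75 CPM in NPs and 2.76 CPM in untreated intestinal members. The brain and the intestinal NPs libraries differed in tissue and in the length of treatment, and perhaps in strain and age, and these cannot be told apart.

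Several genes had the same order of libraries in both tissues. Cxcr6 had 280 CPM in NPs and 102 CPM in untreated intestinal members, Maf 585 CPM in NPs and 225 CPM in untreated, Icos 337 CPM in NPs and 143 CPM in untreated, and Il2ra 70.1 CPM in NPs and 15.2 CPM in untreated intestinal members. Ccr7 had 11.3 CPM in NPs and 80.3 CPM in untreated intestinal members. Ctla4 had 537 CPM in NPs and 179 CPM in untreated intestinal members, and Areg 314 CPM in NPs and 91.7 CPM in untreated. Foxp3 had 27.5 CPM in NPs and 5.3 CPM in untreated intestinal members, the reverse of its few UMIs in the brain. Gzma had 626 CPM in NPs and 2061 CPM in untreated intestinal members, against 607 CPM in NPs and 401 CPM in untreated brain members.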

How the data were processed

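The authors deposited raw UMI counts per gene and barcode for 4 libraries made with the 10x Genomics single cell kit. Reads were counted with Cell Ranger 5.0.1 on GRCm38, per the submitters' processing notes. The deposited counts cover 55450 genes, and all 55450 gene IDs are in GENCODE mouse release 21 (M21), which gave the gene positions. Reads were not aligned again.

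Members, gene lists and tests were chosen with earlier results of these data known. The tools were scanpy 1.11.5 (Scrublet), scipy 1.17.1 (intervals), pandas 2.3.3, numpy 2.4.6 and matplotlib 3.10.9 under Python 3.11.15. Counts of the members of a library were summed and divided by their total (CPM). Shares have exact Clopper-Pearson, levels exact Poisson and ratios conditional binomial intervals. A gene needed 40 UMIs over both libraries (20 within a library for subsets), and a call was a 2-fold difference. Against 0 UMIs, 3 counts took the place of the 0, and no fold was given where both counts were at most 3. The ratio code was tested on simulated data.

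Genes named were the gate genes, the 10 largest and 10 smallest ratios between libraries at a level 2 times that of other brain barcodes, up to 6 genes with the most UMIs per list, the 10 largest and 5 smallest in the subset contrasts, the 10 largest over other brain barcodes and the 10 largest and smallest against CD8 T cells. Other list genes and Ms4a4b in other classes were named after their values were seen, as were the genes without mixed barcodes. Of 18 lists with 238 genes, sex-linked genes served as a check. Some genes of these lists and rules are not reported here, though list counts and medians include them.

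Scrublet called 247 NPs (2.03%) and 335 untreated (2.87%) brain barcodes doublets, 11 NPs and 12 untreated members among them, which stayed in except in an alternative. For thinning, 3 NPs and 0 untreated members under 1000 UMIs were left out. Barcode sharing between the other pairs of libraries was 60 to 104.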

Additional observations from a re-analysis of the deposited data

Results flagged for a closer look

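The share of CD8-negative T cells moved in opposite directions in the tissues. It was 1.13 points higher in the NPs than in the untreated brain library and differed by -9.95 points, NPs minus untreated, in the intestinal libraries. CD8 T cells did likewise, at 0.486 points higher in the brain and -8.87 points in the intestine. The difference between the tissues was not tested, since each group was 1 library.

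Il17a was also found outside the gate in the NPs brain library, where 85 kept barcodes that were no members held 571 UMIs, against 2 barcodes with 2 UMIs in the untreated library. Of the 85, 20 passed the T cell gene minimum, 5 were CD8 T cells with 104 UMIs, and 56 had more than 1 UMI of P2ry12 and Tmem119. At least 3 Il17a UMIs were held by 17 of them.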

How the results depend on the processing

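Of 163 alternative values of the main results, 149 stayed close to the main value over 20 settings, and 14 moved. Of the settings, 17 were planned and 3 chosen after seeing the data. Only a log2 ratio of at least 2-fold in the main setting could be counted as turned round. Shares, gene counts and the naive list median could not be so counted, and the type 17 median did not turn. Of the named genes and subset values 1722 were alike, 214 moved and 4 turned round. Sign changes of smaller log2 ratios, such as that of Xcl1 (-0.63 in the main setting, up to 0.33), are not among the 4. With at most 2 UMIs over 7 microglia and myeloid genes the members were 1.16% of NPs and 0.531% of untreated barcodes, the naive list median was -0.98, Lcn2 turned to -2.98 and Serpinb6b to 0.022 on the log2 scale. Without mixed barcodes 61 genes were lower and Cd74 turned to 0.31. Thinning gave Cd4 shares of 18.1% (NPs) and 13.8% (untreated). A minimum of 20 UMIs gave 472 higher and 330 lower genes, a minimum of 100 UMIs 87 and 40, and equal numbers of members (109) and UMIs (451477) 132 higher. With 3 or more Il17a UMIs the NPs share was 27.8%. Among Il17a-negative members 129 genes were higher and the type 17 median was 0.71. In the untreated library alone Ccr7 was higher in the Il17a-positive cells (1.01). The cause of these moves was not tested, beyond fewer genes or cells where a minimum or subset sets them. The 534224 untreated UMIs limit low genes. No paired analysis was possible because each group was 1 library.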
